A study of Caenorhabditis elegans with 2 samples.

Results

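The SEM-4 peaks described here passed the authors' reproducibility threshold but ranked low, or were missing, in at least 1 of the 2 replicates. They were chosen by signal rank. A member is a reproducible peak whose best-ranked overlapping peak lay beyond rank 5000 in at least 1 of the 2 replicate lists, or that overlapped no peak there. On assembly ce11, 244 reproducible peaks (9.80% of the list) met this rule and are called uneven below, and 2246 did not. The reproducible list is the authors' thresholded list from the irreproducible discovery rate (IDR) procedure, which weighs how well ranks repeat between replicates. SEM-4, which belongs to the Spalt family of zinc-finger factors, was assayed as an eGFP fusion by chromatin immunoprecipitation and sequencing (ChIP-seq). The material was whole L2 larvae of Caenorhabditis elegans strain OP57, mixed in sex, carrying the integrated transgene wgIs57 and the unc-119(ed3) mutation. Both samples belong to 1 group and are biological replicates 1 and 2, so the transgene, the mutant background and the stage are shared, and there is no second condition. The labels do not say how the replicate populations were grown. Because whole animals were used, binding in few cells and weak binding in many cells cannot be told apart. The deposited lists hold no read counts, so depth is unknown and no counting error can be given for a peak.

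Spalt-family proteins bind DNA through paired zinc fingers and act mostly as regulators of cell fate. In worms, sem-4 is known from genetics for its part in touch receptor and egg-laying neurons, the sex myoblasts and the rectal Y cell. The signal of a peak is the authors' value for its enrichment of ChIP reads over a control. Its scale differs between lists, so ranks rather than signal values were compared between replicates. Each replicate list held 30000 peaks and therefore included much background. In replicate 1, rank 5000 corresponded to a signal of 17.9, and in replicate 2 to 11.9.

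Sequences at the summits, where the signal of a peak is highest, are shown first. They are the 3 peaks of highest pooled signal in each direction, outside 1 chromosome that is not shown, on the plus strand of ce11 as given by RefSeq. Each run is centred on the pooled summit with 50 bases on either side, and is named by the nearest protein-coding start. Capitals mark a SEM-4 site known from the literature (TTGTCT or TTGTGT), the AT-rich ATATT bound by vertebrate SALL4, and GAGAGA, on either strand. Weaker in replicate 1 were the peaks of C02E7.7 (chrV:4918806-4918906), T28B11.1 (chrV:10717384-10717484) and R11F4.1 (chrII:4089379-4089479).
C02E7.7: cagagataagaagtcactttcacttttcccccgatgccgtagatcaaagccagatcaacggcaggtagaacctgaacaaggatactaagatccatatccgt
T28B11.1: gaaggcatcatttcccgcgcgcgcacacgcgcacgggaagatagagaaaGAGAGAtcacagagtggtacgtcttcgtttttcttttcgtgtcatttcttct
R11F4.1: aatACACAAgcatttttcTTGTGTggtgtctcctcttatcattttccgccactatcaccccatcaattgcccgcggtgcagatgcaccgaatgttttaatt

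Weaker in replicate 2 were the peaks of trm-2A (chrV:904762-904862), F57A8.1 (chrV:10039983-10040083) and atad-3 (chrII:10248521-10248621).
trm-2A: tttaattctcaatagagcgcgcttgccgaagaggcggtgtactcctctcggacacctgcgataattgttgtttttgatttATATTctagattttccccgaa
F57A8.1: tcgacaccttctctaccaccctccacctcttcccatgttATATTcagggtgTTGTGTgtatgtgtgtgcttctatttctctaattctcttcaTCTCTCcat
atad-3: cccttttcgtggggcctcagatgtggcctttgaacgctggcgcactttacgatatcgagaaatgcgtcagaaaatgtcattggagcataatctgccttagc

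The C02E7.7 and atad-3 windows held none of these 3 motifs. The R11F4.1 window held the SEM-4 site on both strands, and T28B11.1 held GAGAGA alone. The trm-2A window held ATATT, and that of F57A8.1 held all 3. The GC content of the 6 windows lay between 42.6% and 49.5%.

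More members were weaker in replicate 2 than in replicate 1. Replicate 2 was the weaker one for 161 peaks (6.47% of the reproducible list) and replicate 1 for 83 (3.33%). Most stood high in the other replicate, since 230 of the 244 ranked there within as many top ranks as there are reproducible peaks, and 74 within the top 1000. The weaker rank was beyond 5000 but not beyond 10000 for 198 members, and beyond 10000 or missing for 46. Where both ranks existed, in 229 members, the weaker rank was a median of 5.57 times the stronger (quartiles 3.76 and 8.36). Among the other 2246 reproducible peaks this ratio had a median of 1.76. Since ranks chose the members, these values describe the choice and were not tested.

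**Figure D1:**
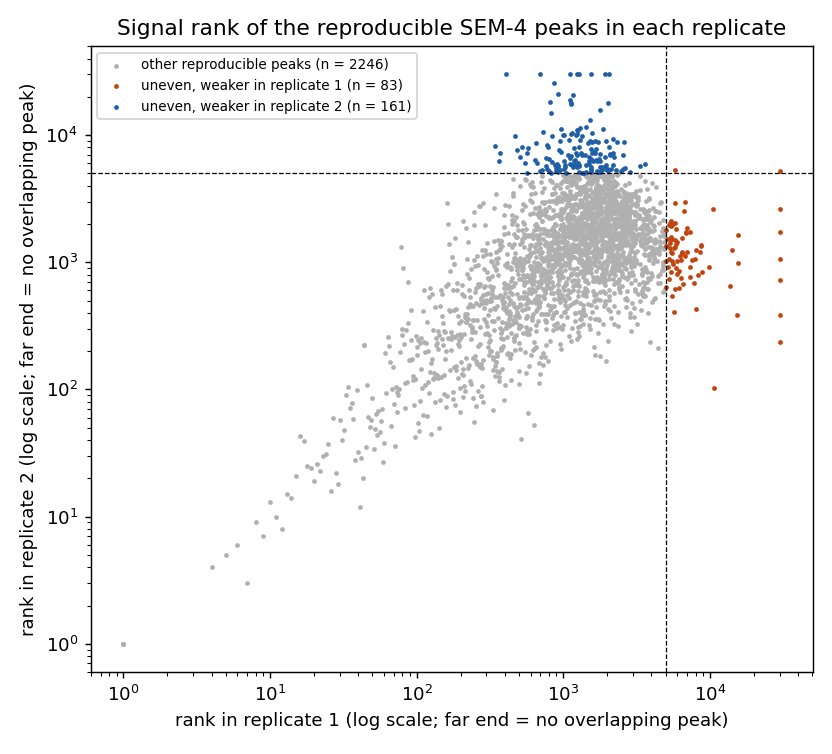
Signal rank of each reproducible peak in replicate 1 (horizontal) and replicate 2 (vertical), both on log scales, with a missing peak drawn at the far end and dashed lines at rank 5000. The 161 peaks weaker in replicate 2 lie above the horizontal line and the 83 weaker in replicate 1 right of the vertical line, 2 of them beyond both lines.

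Uneven peaks sat at the low end of the reproducible list. Their pooled signal had a median of 44.0 (quartiles 41.9 and 47.9), against 60.1 (49.0 and 83.9) for the others. With the reproducible list cut into 4 equal groups by pooled signal, the strongest group held 1 member, the next 15, the following one 56 and the weakest 172. Members weaker in replicate 1 lay lower still, with 84.3% of them in the weakest group, against 63.4% of those weaker in replicate 2. The members just inside the rank limit were sdz-19 (rank 5015 in replicate 1, 636 in replicate 2), oga-1 (5016 and 1022) and trm-2A (567 and 5029). Just outside it stood the peaks of madd-3 (1386 and 4984), suca-1 (2360 and 4978) and dif-1 (4976 and 618). Ranks on either side of the limit were close to each other.

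The strongest member was an intergenic summit on chromosome V at 4918856, shared by the promoters of C02E7.7, 282 bp away, and C02E7.6. Its pooled signal was 81.1 at pooled rank 606. Replicate 2 held it at 41.9 and rank 385, while no peak of replicate 1 overlapped it. The second strongest of those weaker in replicate 1 was 207 bp upstream of mekk-3, with signals of 16.6 (rank 5726) in replicate 1 and 40.9 (rank 406) in replicate 2. It was followed by a summit in overlapping non-coding genes, T28B11.7 and T28B11.14, absent from replicate 1 and at 49.7 (rank 234) in replicate 2. Each of these 3 summits ranked 406 or better in replicate 2.

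Several others of this direction were far from a start. R11F4.1 had its summit 2501 bp upstream, with ranks of 6025 in replicate 1 and 815 in replicate 2. wdfy-3 had one 1715 bp upstream (ranks 9931 and 922), and F57G12.1 one 15959 bp upstream (6012 and 1019), the largest distance of any member. Within genes lay the intron summits of W05B5.1 (5780 and 615) and of the forkhead transcription factor gene fkh-7 (8066 and 427). The list of 10 closed with F26H9.5, 737 bp upstream (10493 and 2645), and sdz-19, given above. Among these 10, all but F26H9.5 ranked 1019 or better in replicate 2.

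Of those weaker in replicate 2, the strongest lay 151 bp upstream of trm-2A, with a pooled signal of 73.3. Its signal was 52.1 in replicate 1 and 11.8 in replicate 2, just past the rank limit. An intron of F57A8.1 held the next, with 64.6 (rank 343) and 8.53 (rank 8183). The promoter shared by atad-3, a mitochondrial AAA ATPase gene, and nrde-2, a gene of nuclear RNA interference, held a summit of 46.9 (rank 695) in replicate 1 and none in replicate 2. Another shared promoter, that of the splicing kinase gene prpf-4 and the small-RNA pathway gene ekl-1, had ranks of 367 and 6208. Each of these 4 ranked 695 or better in replicate 1.

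Others of this direction lay near genes with known roles. A summit 642 bp upstream of lev-9, which encodes a scaffold that clusters acetylcholine receptors at the neuromuscular junction, ranked 523 in replicate 1 and 8018 in replicate 2. The same summit fell in the window of mom-1, a gene needed for Wnt secretion. The start of the mitochondrial ribosomal protein gene mrpl-47 carried a 5' UTR summit with ranks of 552 and 6064. The nuclear hormone receptor gene nhr-3 had a summit 3970 bp downstream of its start (368 and 7177), and the SUMO protease gene ulp-4 had one 1492 bp upstream (568 and 7167). F44E5.4 (466 and 9906) and Y56A3A.33 (481 and 7565) completed the 10. Replicate 1 placed each of these 6 at rank 568 or better.

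**Figure D2:**
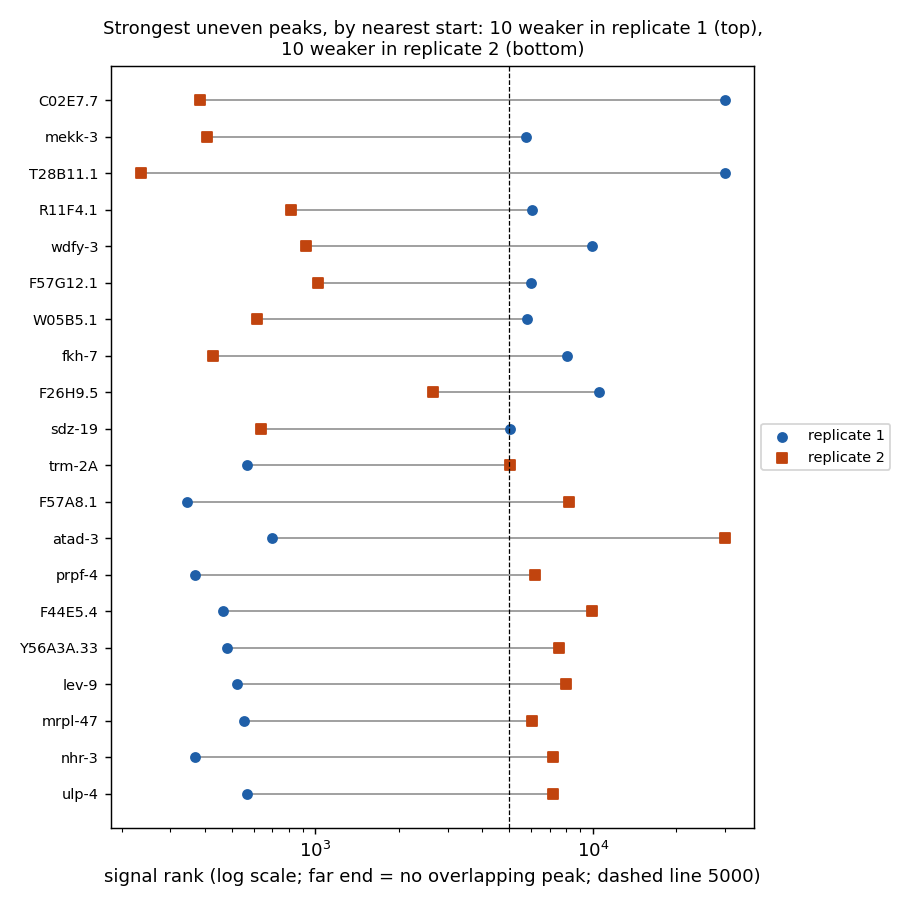
Ranks in replicate 1 (circles) and replicate 2 (squares) of the 10 strongest uneven peaks of each direction, named by nearest start, on a log scale with a missing peak at the far end. In the upper 10 the square lies left of the circle and left of rank 5000, and in the lower 10 the circle does.

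Complete absence from a replicate was rare. Only 7 members overlapped no peak of replicate 1 and 8 none of replicate 2, and in 9 of these 15 cases the nearest peak of that replicate lay less than 1000 bp away. The closest was at C07A9.9, an intron summit at rank 1286 in replicate 1, where the edge of a replicate 2 peak of rank 3440 was 104 bp away. An intron of let-526, which encodes a subunit of the SWI/SNF chromatin remodelling complex, held a summit at rank 409 in replicate 1. Replicate 2 had a far stronger peak, at rank 112, only 360 bp from it. At T28B11.1 the neighbour was 121 bp away (rank 14782), at C02E7.7 it was 269 bp away (rank 10442), and at hpo-11 168 bp (rank 11065). The remaining near cases were mig-13 (342 bp, rank 7511), sphr-1 (494 bp, rank 8824), nrsn-1 (665 bp, rank 9222) and osgn-1 (689 bp, rank 16083). At these 9 loci the other list thus held a peak nearby without overlap, and in 7 of them that peak was beyond rank 5000.

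In the other 6 cases the nearest peak was more than 1000 bp off. The largest distance, 12515 bp, was at an intron summit of C51E3.9 (rank 1929 in replicate 1). M02D8.3, 318 bp upstream, ranked 1733 in replicate 2 with nothing closer than 3411 bp in replicate 1. The summit 27 bp upstream of hda-6, a histone deacetylase gene, ranked 2057 in replicate 1 and had no replicate 2 peak within 2200 bp. H18N23.2 (rank 1251 in replicate 1) had none within 2155 bp, and the derlin gene cup-2 (rank 1546) none within 1905 bp. For atad-3 the distance was 1159 bp. The mig-13 peak was 1 of 2 members outside the top 5000 of both replicates, as it ranked 5249 in replicate 2.

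The largest rank ratio among members with both ranks was 104, in an intron of zfp-1, a gene for a PHD-type chromatin protein. This summit and the others given with it were named after their values were seen. It ranked 10643 in replicate 1 and 102 in replicate 2, with signals of 11.8 and 66.4. Its pooled signal was 42.3, and the pooled peak spans only chrIII:8800354-8800501, against a median width of 350 bp. A match needed only 1 bp of overlap, and whether the replicate 2 peak of rank 102 has the same summit was not tested. In the other direction, Y17G7B.18 had a summit 158 bp upstream of its start at ranks 868 and 25660. Intron summits of dus-2 (916 and 20894) and gpa-7 (808 and 18358) also had large ratios.

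No location class was found to differ between uneven and other reproducible peaks. Intergenic sequence held 150 of them (61.5%), introns of protein-coding genes 57 (23.4%) and exons of non-coding genes 20 (8.20%). For the other reproducible peaks the shares were 64.0%, 20.5% and 10.3%. Coding exons held 6 members (2.46% against 1.34%), 5' UTRs held 7 (2.87% against 3.03%) and 3' UTRs held 4 (1.64% against 0.801%). None of the 6 classes passed the test, with adjusted p-values from 0.530 to 1 by Fisher's exact test, two-sided and adjusted by the Benjamini-Hochberg method. The intervals are wide, and that of the coding exon odds ratio of 1.86 reached from 0.627 to 4.61.

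Fewer uneven summits lay in the promoter window. The promoter window, from 1000 bp upstream to 200 bp downstream of an annotated protein-coding transcript start, held 115 of them (47.1%, exact 95% interval 40.7 to 53.6). It held 56.1% of the other reproducible summits (54.1 to 58.2) and 30.8% of the 27510 pooled peaks that missed the IDR threshold. The odds ratio against the other reproducible peaks was 0.696 (95% interval 0.529 to 0.915, p = 0.00812, Fisher's exact test, two-sided). Peaks are not independent animals, so this p covers peaks of these 2 samples only. Uneven peaks also had lower pooled signal, and its part in this difference was not tested. Among the 1245 reproducible peaks of lowest signal the shares were 45.6% of 228 and 52.3% of 1017, with an odds ratio of 0.765 that did not pass (p = 0.0784, Fisher's exact test). With narrower and wider windows the odds ratios were 0.807 and 0.827, also without a call. With the rank in replicate 1 alone as the rule, which leaves out replicate 2, the odds ratio was 0.709 over 83 peaks, without a call (p = 0.144, Fisher's exact test).

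The distance to the nearest start had a median of 762.5 bp in uneven peaks and 594 bp in the others. Within 200 bp of a start the shares were nearly equal, at 25.8% and 26.0%. From 200 to 500 bp they were 18.4% and 20.6%, from 500 to 1000 bp 11.1% and 13.8%, and from 1000 to 2000 bp 19.3% and 15.1%. Beyond 2000 bp lay 25.4% of uneven and 24.4% of other summits (odds ratio 1.06, 0.766 to 1.44, p = 0.754, Fisher's exact test). On the upstream side of the nearest start lay 68.9% of uneven summits (62.6 to 74.6) and 77.6% of the others (75.9 to 79.4), a difference that was not tested. The share was 79.5% (69.2 to 87.6) of those weaker in replicate 1 and 63.4% (55.4 to 70.8) of those weaker in replicate 2. These 2 groups have slightly overlapping intervals, which do not decide whether the shares differ, and this was not tested either. The promoter window held 47.0% and 47.2% of them (odds ratio 0.991, 0.563 to 1.74, p = 1, Fisher's exact test).

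**Figure D3:**
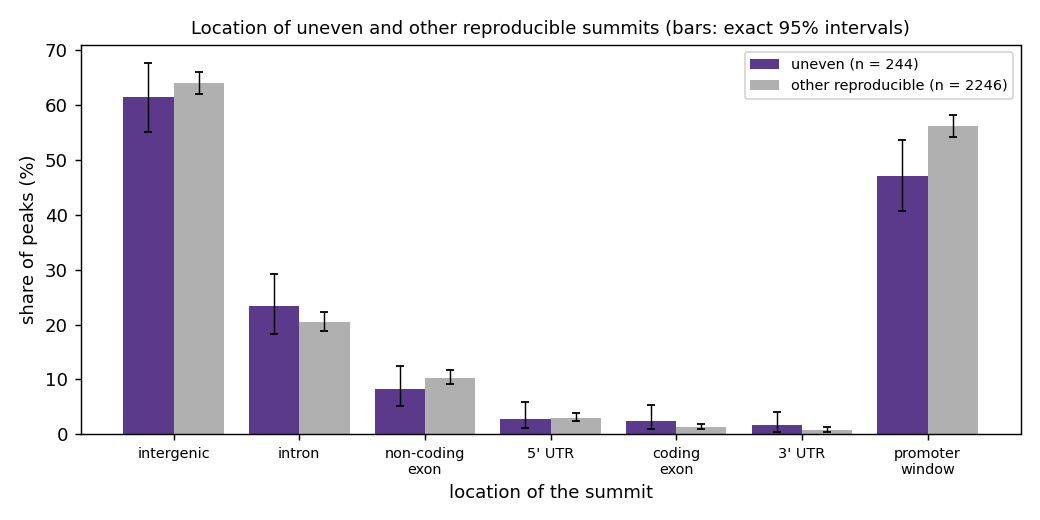
Share of summits in each location class and in the promoter window (percent, from 0) for 244 uneven and 2246 other reproducible peaks, with exact 95% intervals as bars. The intervals of the 6 classes overlap, while in the promoter window the uneven share of 47.1% lies below 56.1%.

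Each of the 6 chromosomes held uneven peaks, and none passed the test. The X chromosome held 50, chromosome V 45, IV 41, I 38, III 37 and II 33. Against the other reproducible peaks the odds ratios ran from 0.768 on chromosome III (15.2% against 18.9%) to 1.34 on chromosome V (18.4% against 14.4%). The adjusted p-values lay between 0.497 and 0.927 by Fisher's exact test. Of members weaker in replicate 1, 22.9% were on X, and of those weaker in replicate 2, 19.3% (odds ratio 1.24, interval 0.614 to 2.48), with p = 0.665 by the exact test, adjusted over the 6 chromosomes. With each chromosome cut into 3 equal lengths, the middle one held 45.1% of uneven and 43.3% of other summits (odds ratio 1.08, 0.817 to 1.42, p = 0.587, Fisher's exact test).

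Over all 244 uneven summits, the shares of some short sequence motifs differed from those of the other reproducible peaks. ATATT occurred within 50 bp of the summit in 50 of 244 uneven peaks (20.5%) and in 12.6% of the other reproducible peaks (odds ratio 1.78, interval 1.25 to 2.51). By Fisher's exact test, adjusted over 5 motifs, p was 0.00534. GAGAGA went the other way, with 56 (23.0%) against 31.6% (odds ratio 0.644, interval 0.463 to 0.886), with an adjusted p of 0.0136 by the same exact test. The E-box CACGTG was found in 4 uneven peaks (1.64%) against 4.81% (odds ratio 0.330, interval 0.0876 to 0.882), with an adjusted p of 0.0357 by the same exact test. The SEM-4 site, spelled TTGTCT or TTGTGT, was found in 16.0% against 18.9%, and the GATA-type TGATAA in 6.56% against 4.01%, neither with a call. Among the 27510 pooled peaks below the IDR threshold, ATATT stood at 30.6%, GAGAGA at 10.6%, CACGTG at 1.98%, the SEM-4 site at 14.1% and TGATAA at 8.39%. The uneven shares of ATATT and GAGAGA thus lay between those of the other reproducible peaks and of the weaker pooled peaks. In the 83 members weaker in replicate 1, ATATT stood at 13.3% and GAGAGA at 33.7%, near the shares of the other reproducible peaks. In the 161 weaker in replicate 2 they stood at 24.2% and 17.4%, a split chosen after the shares were seen. Both strands were searched. On opposite strands, ATATT and TGATAA can share 2 end letters, and TTGTCT and GAGAGA can share 3. A match is a description, not a bound site.

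The motif differences lost their calls among weaker peaks. Among the 1245 reproducible peaks of lowest signal, ATATT stood at 19.3% against 13.2% (odds ratio 1.58, adjusted p = 0.105, exact test). GAGAGA stood at 23.2% against 30.0% (odds ratio 0.707, adjusted p = 0.108, exact test) and CACGTG at 1.75% against 4.03% (odds ratio 0.425, adjusted p = 0.193, exact test). This comparison held 1017 other peaks in place of 2246. With the rank in replicate 1 alone as the rule, the odds ratio of ATATT was 0.986, that of GAGAGA 1.15 and that of CACGTG 0.516, none with a call. With the rank in replicate 2 alone, the odds ratio of the SEM-4 site was 0.595, which passed (adjusted p = 0.0458, Fisher's exact test). In a window of 51 bp the GAGAGA odds ratio was 0.964.

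Motif shares were also taken for each direction. This split was chosen after the shares were seen. Calls for GAGAGA and the SEM-4 site in tests run on it support nothing, so the shares are given as a description. GAGAGA was found in 28 of 83 peaks weaker in replicate 1 (33.7%, interval 23.7 to 44.9) and in 28 of 161 weaker in replicate 2 (17.4%, 11.9 to 24.1), an odds ratio of 2.42. The SEM-4 site was found in 24.1% and 11.8% (odds ratio 2.37), and ATATT in 13.3% and 24.2% (odds ratio 0.478). With a window of 51 bp the odds ratio was 2.39 for GAGAGA and 0.874 for the SEM-4 site, and with a rank limit of 10000 that of GAGAGA was 1.73. In the other reproducible peaks the shares were 31.6% for GAGAGA, 18.9% for the SEM-4 site and 12.6% for ATATT.

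The GC content within 50 bp of the summit had a median of 45.5% in peaks weaker in replicate 1 and 43.6% in peaks weaker in replicate 2. It was 46.5% in the other reproducible peaks and 35.6% in the pooled peaks below the threshold. Across the 2475 reproducible peaks present in both replicates, the Spearman rank correlation between GC content and the log2 ratio of ranks (replicate 1 over replicate 2) was 0.0825, a weak relation over peaks that share both libraries. Its part in the motif shares was not tested. The summit base was soft-masked as repeat in the reference for 19.3% of uneven and 16.2% of other peaks.

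**Figure D4:**
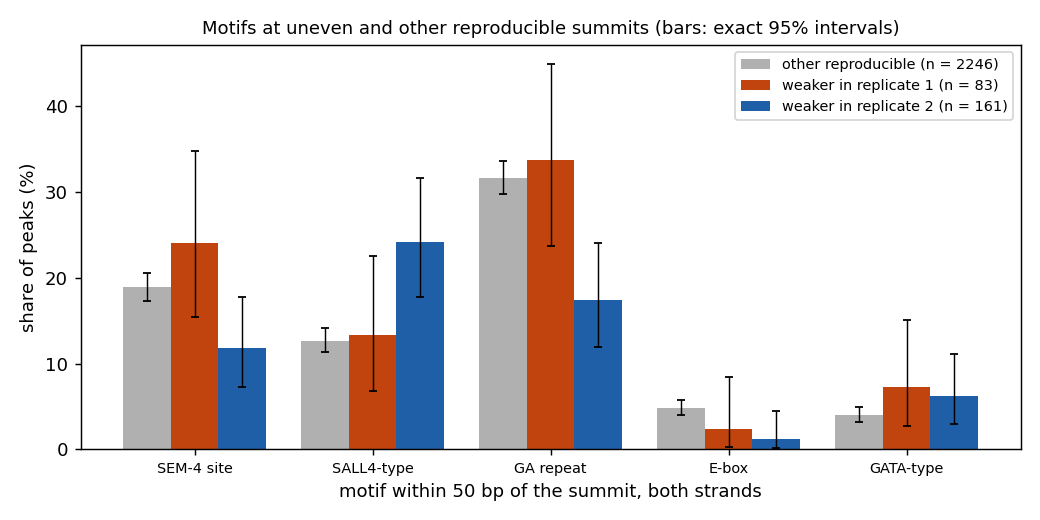
Share of peaks (percent, from 0) with each of 5 motifs within 50 bp of the summit on either strand, for 2246 other reproducible peaks, 83 uneven peaks weaker in replicate 1 and 161 weaker in replicate 2, with exact 95% intervals as bars. The SEM-4 site is TTGTCT or TTGTGT, the SALL4-type motif ATATT, the GA repeat GAGAGA, the E-box CACGTG and the GATA-type motif TGATAA. The GA repeat stands at 31.6%, 33.7% and 17.4% in these 3 groups.

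Genes were assigned where a reproducible summit lay in the promoter window, and each gene was represented by its strongest one. Of 1739 such genes, 143 (8.22%) were represented by an uneven summit, 51 of them weaker in replicate 1 and 92 weaker in replicate 2. Neighbouring genes can share a summit. Across 27 gene lists, 224 listed genes had a reproducible promoter summit, and for 17 of these it was uneven (7.59%). The share is near that of all such genes. Of the 143 genes, 126 belonged to none of the lists. Counts are given with no test, because the lists were chosen with earlier results of these data known.

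For genes of protein synthesis and breakdown the counts of uneven promoter summits were small, and are to be read against the 8.22% of all genes with a reproducible promoter summit. Of 53 cytosolic ribosomal protein genes with a reproducible summit, 2 were uneven. The summit 273 bp upstream of rps-8, a small-subunit gene, ranked 1048 in replicate 1 and 5046 in replicate 2. At rpl-41.1, a large-subunit gene, the summit 612 bp upstream ranked 6769 and 1122. The nearest start to that summit was that of M04F3.5, 220 bp away. Of 15 mitochondrial ribosomal protein genes only mrpl-47, given above, was uneven. In the list of translation factors and tRNA synthetases 2 of 19 were, namely inf-1, which encodes the helicase eIF4A (8641 and 1194), and eif-6, a factor of large-subunit maturation (7048 and 1853). The latter shares its summit with pbs-2, a gene for a beta subunit of the proteasome core. Among 12 proteasome and CDC-48 genes the other uneven one was rpn-5, of the proteasome's regulatory particle (5994 and 1455). Summits of rpn-5 and inf-1 also lay in the windows of scc-1 and flap-1, in that order. The 4 listed genes inf-1, eif-6, pbs-2 and rpn-5, of which eif-6 and pbs-2 share a summit, were weaker in replicate 1, as was rpl-41.1. The rps-8 and mrpl-47 summits were weaker in replicate 2.

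Of 23 nuclear genes of oxidative phosphorylation with a reproducible summit, 2 were uneven and in opposite directions. The complex I subunit gene nuo-1 ranked 6319 in replicate 1 and 1035 in replicate 2, with signals of 15.7 and 27.7. Its summit also lay in the window of rpl-36.A and in exons of the non-coding genes C09H10.11 and C09H10.13. The ATP synthase subunit gene atp-4 ranked 1438 and 5080, with signals of 33.9 and 11.7, and its summit lay in the 3' UTR of the neighbouring gene alh-4. Of 9 histone genes 2 were uneven, his-59 and his-60, which share a summit at ranks 1978 and 5453. Histone genes have near-identical copies, and how reads were divided among copies is not given in the sources used here.

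In the Hox, heterochronic, M lineage and Y-to-PDA lists, 4 genes had an uneven promoter summit, and each of these summits was weaker in replicate 2. Of all 143 genes with an uneven promoter summit, 92 were weaker in replicate 2. So few genes cannot be read against that share, or against the 8.22% of all genes. The Hox gene mab-5, which patterns the posterior body and the M lineage, had a summit 837 bp upstream with signals of 47.9 (rank 667) in replicate 1 and 10.5 (rank 6023) in replicate 2. Of 2 Hox genes with a reproducible promoter summit it was the only uneven one. Of 10 heterochronic timing genes 2 were uneven. The Period homologue lin-42 had its summit 607 bp from a start, in a coding exon of its own longer transcripts, at ranks 1236 and 6934. The summit of lin-46, which encodes a gephyrin-like protein acting after lin-28, ranked 1354 and 6948. It lay 831 bp upstream of lin-46 and is shared with the windows of R186.3 and R186.8. The R186.8 start was the nearest, 42 bp away. Another uneven summit, intergenic and 1458 bp downstream of the nearest lin-42 start, ranked 1012 and 6262. It lay in no promoter window. The histone methyltransferase gene set-2, in the Y-to-PDA list, ranked 1732 and 5169.

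Receptor genes held uneven summits in promoter windows and in introns. Of 18 nuclear hormone receptor genes with a reproducible promoter summit, nhr-40 alone was uneven, at ranks 5903 and 905. Of 8 chemoreceptor genes srh-76 was, at ranks 2038 and 17718. In the other 15 lists the strongest promoter summit of no gene was uneven. Weaker summits in the same windows were not counted. These were cuticle collagens (8 genes with a reproducible summit), neuropeptide and insulin-like genes (2), ceh homeobox genes (2), panneuronal and synaptic genes (11), muscle genes (6), NuRD and MEC chromatin genes (4) and Wnt pathway genes (4). The same held for ion channel genes (7), touch and HSN neuron fate genes (2), AMPK subunit genes (2) and hlh factor genes (2). It also held for G protein-coupled and biogenic amine receptor genes (1) and seam and epidermal regulators (1). The SEM-4 genetic targets and the EGF, Ras and Notch genes had no reproducible promoter summit at all. With 8.22% as the background, 0 of 11 or fewer genes is not shown to differ from it.

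**Figure D5:**
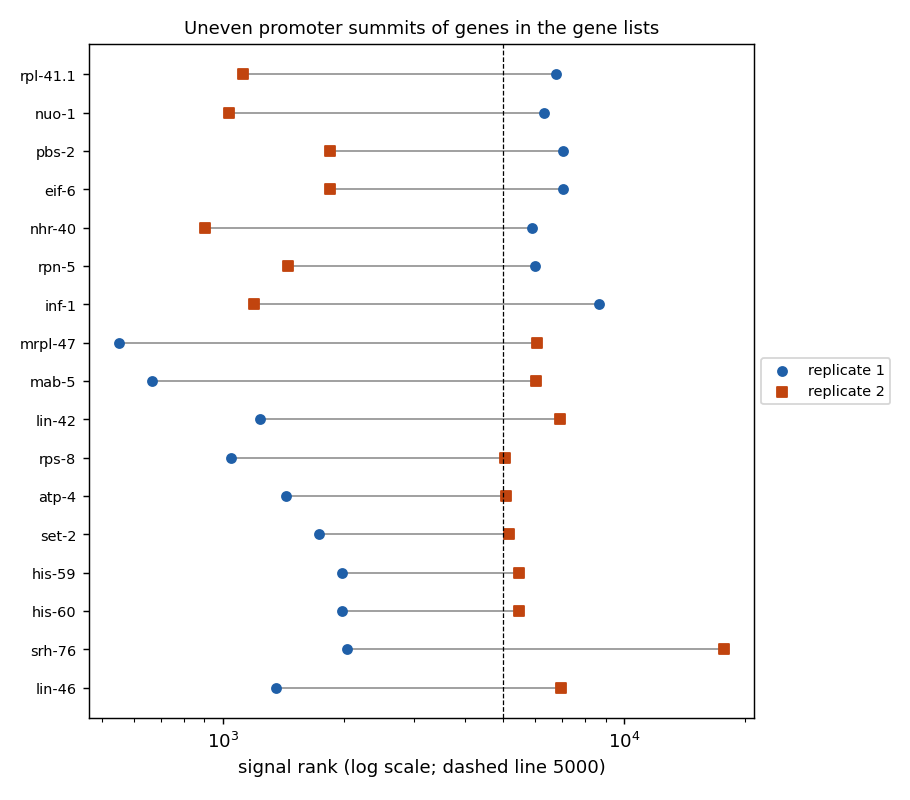
Ranks in replicate 1 (circles) and replicate 2 (squares) of the strongest promoter summit of the 17 listed genes for which it was uneven, on a log scale with a dashed line at rank 5000. The 7 genes from rpl-41.1 to inf-1 are weaker in replicate 1 and the 10 from mrpl-47 to lin-46 are weaker in replicate 2.

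Uneven intron summits lay in genes of the neuronal, nuclear hormone receptor, Hox and timing lists, and of no other list. Of 518 reproducible intron summits 57 (11.0%) were uneven. In panneuronal and synaptic genes 4 of 13 intron summits were, against none of 11 genes by strongest promoter summit, too few for a comparison. They lay in unc-33, a gene of axon outgrowth (5569 in replicate 1 and 1020 in replicate 2), unc-108, the Rab2 GTPase gene (3348 and 5695), ric-7 (1782 and 5133) and the synaptic kinase gene sad-1 (1923 and 6730). In nuclear hormone receptor genes 3 of 16 were, in nhr-40, nhr-48 (1352 and 5071) and nhr-49, a regulator of fat metabolism (1672 and 7742). That of nhr-40 is the same summit as its promoter summit given above, which also lies in an intron. In Hox genes 1 of 4 was, in the posterior gene nob-1, at ranks 5615 and 963, opposite in direction to mab-5. In heterochronic genes 2 of 14 intron summits were uneven, both in lin-14. None was uneven among intron summits of the Y-to-PDA (8), AMPK subunit (7), NuRD and MEC (6), hlh (5) or Wnt (4) lists. Such counts are too small to be read against 11.0%.

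Some uneven peaks had another uneven peak close by. Of 12 neighbouring pairs less than 5000 bp apart, 8 had different weaker replicates and 4 the same, a count that was not tested. It is to be read beside the 83 members weaker in replicate 1 and the 161 weaker in replicate 2. The pairs described here, and the tRNA example given further on, were chosen after their values were seen. Both lin-14 summits lay in 1 gene, 1296 bp apart, on the X chromosome. The summit at 11473458 ranked 5133 in replicate 1 and 1336 in replicate 2, and that at 11474754 ranked 1273 and 8019. In introns of C07A9.9, summits 743 bp apart also differed, with ranks of 5665 and 1292 at 9665671, and with rank 1286 in replicate 1 and no peak in replicate 2 at 9666414. At F57A8.1, 2455 bp separated the summit of rank 343 in replicate 1, given above, from one at ranks 6192 and 850. In the region of par-5, the 14-3-3 gene, summits 1720 bp apart ranked 1564 and 7262, and 6153 and 630. The closest pair with the same direction were the ulp-4 summits, 574 bp apart, at ranks 568 and 876 in replicate 1 and 7167 and 5862 in replicate 2. Another reproducible summit lay within 2000 bp of 23.4% of uneven and 25.4% of other peaks.

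Exons of non-coding genes held 20 uneven summits. Of these, 16 lay in genes annotated only as ncRNA, as did 194 reproducible summits in all, a share near the 9.80% of the whole list. A further 3 lay where a tRNA gene and an ncRNA gene overlap, out of 11, and each of the 3 was weaker in replicate 2. The highest of these ranked 1107 and 5907, near unc-115. None of the 10 summits in tRNA genes alone and none of the 12 in snoRNA genes alone was uneven, counts too small to be read against 9.80%. The long intergenic RNA gene linc-136 held the remaining summit, missing in replicate 1 and at rank 722 in replicate 2. Of the 20, 10 were weaker in each replicate, which is 12.0% of the members weaker in replicate 1 and 6.21% of those weaker in replicate 2 (odds ratio 2.07, interval 0.734 to 5.79), with p = 0.421 by the exact test, adjusted over 6 classes. The 6 coding exon summits and the 4 in 3' UTRs were all weaker in replicate 2, which did not pass the same exact test (adjusted p = 0.421 and 0.605).

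Uneven coding exon and UTR summits included named metabolic and regulatory genes. Coding exon summits lay in lin-42, tps-2, a trehalose phosphate synthase gene, pals-26, C39E9.8, stdh-1 and F59F4.3. The 3' UTR summits lay in lelo-2, Y43F8B.3, alh-4, an aldehyde dehydrogenase gene, and tlp-1, which encodes a zinc-finger factor of tail development. The 5' UTR summits lay in mrpl-47, F07F6.7, cup-16, rbm-39, the nuclease gene fan-1, W02D7.6 and pdi-2, a protein disulphide isomerase gene. Of these 7, cup-16 alone was weaker in replicate 1. All were named after their values were seen, because each class held few members.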

How the data were processed

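The measurements were peak lists from ChIP-seq of tagged SEM-4 in 2 replicates of 1 group. Per the deposited text file lists, the authors called relaxed peaks on each replicate and on pooled alignments, each with a control, and derived the thresholded list from these by IDR. Column 7 of each deposited list is a signal value per peak and column 9 holds −log10 q-values, as the narrowPeak layout named in the file list gives them. The aligner, peak caller, IDR threshold and versions are not given in the sources used here, and the control was not analysed here. Sequencing depth is unknown for both replicates, and its part in the ranks was not tested.

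Peaks were ranked by signal, ties taking the best rank, and matched by at least 1 bp of overlap, taking the best-ranked match. Genes came from Ensembl release 115 (WBcel235, the ce11 coordinates) and bases from the RefSeq copy of that assembly. A summit was placed by priority in coding exon, 5' UTR, 3' UTR, non-coding exon, intron of a protein-coding gene or intergenic sequence. Shares were compared by Fisher's exact test, two-sided, with a threshold of 0.05 after Benjamini-Hochberg adjustment within the 6 classes, 6 chromosomes or 5 motifs. Members and lists were chosen with earlier results of these data known. Named peaks are the 10 of highest pooled signal in each direction, every member missing from a replicate, up to 4 genes per list and the 3 peaks on either side of the limit. The matching and test functions were tested on simulated data. No pairing check applied, as there is 1 group. Computation used Python 3.11.15, numpy 2.4.6, scipy 1.17.1, pandas 2.3.3 and matplotlib 3.10.9.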

Additional observations from a re-analysis of the deposited data

How the results depend on the processing

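Odds ratios are of uneven against other reproducible peaks, or of peaks weaker in replicate 1 against those weaker in replicate 2. Each alternative changed 1 choice. The number of uneven peaks was 411 with 50% reciprocal overlap, 949 with a rank limit equal to the number of reproducible peaks (the lower limit), 46 with 10000, and 83 to 163 with 1 replicate's rank alone. On ce10 it was 224 of 2448. Listed genes with an uneven summit numbered 33, 66 and 1 with these first 3 settings, and 7 to 10 with 1 replicate alone. The promoter odds ratio lost its call at 0.818 (reciprocal overlap), 0.738 (limit 10000), 0.765 (lowest-signal peaks), 0.807 (window of 500 and 100 bp) and 0.827 (2000 and 500 bp). It was 0.709 with either replicate alone, with a call only without replicate 1. ATATT lost its call at 1.44 (reciprocal overlap), 1.20 (lower limit), 1.59 (limit 10000), 1.58 (lowest-signal peaks) and 1.64 (51 bp). GAGAGA did so at 0.793, 0.845, 0.620, 0.707 and 0.964, and CACGTG at 0.653, 0.609, 0.467, 0.425 and 0.323, in the same order, and at 0.435 by nearest summit. With 1 replicate alone the ranges were 0.986 to 2.25 for ATATT, 0.447 to 1.15 for GAGAGA, 0.250 to 0.516 for CACGTG and 0.595 to 1.41 for the SEM-4 site, which passed at 0.595. The SEM-4 site turned to 1.07 at limit 10000, and TGATAA passed at 1.54 with 100 bp on each side. The cause of these shifts was not tested, beyond the fewer peaks of some settings.

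The motif split by weaker replicate was prompted by its own shares, so its calls support nothing. In it, the SEM-4 site lost its call at 2.15 (nearest summit), 1.45 (lower limit), 7.25 (limit 10000) and 1.32 (100 bp on each side), and turned to 0.874 in 51 bp. GAGAGA lost it at 1.73 (limit 10000) and 2.39 (51 bp). TGATAA turned to 0.744 (lower limit) and CACGTG to 0 (limit 10000). The promoter share turned to 1.23 (lower limit), 1.03 (column 9), 1.00 (lowest-signal peaks), 1.11 and 1.20 (other windows), and the X share to 0.965 (lower limit), without calls.

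Uncalled shares also crossed 1. Chromosome I reached 1.09 (reciprocal overlap), 1.00 (nearest summit), 1.28 (limit 10000) and 1.02 (ce10). Chromosome II reached 1.18, 1.10 (lower limit) and 1.03 (column 9), IV reached 0.914 (reciprocal overlap), and X reached 1.01 (nearest summit) and 1.07 (lower limit). The chromosome middle gave 0.947 and 0.970, 5' UTRs 1.06 and 1.09 (reciprocal overlap and lower limit), 3' UTRs 0 and non-coding exons 1.34 (limit 10000). With 1 replicate alone the ranges were 0.627 to 1.14 (I), 0.846 to 1.14 (II), 0.857 to 1.05 (X), 0.947 to 1.12 (chromosome middle), 0.978 to 1.11 (over 2000 bp), 0 to 2.93 (coding exons), 0 to 3.23 (3' UTRs), 0.384 to 1.25 (5' UTRs) and 0.563 to 1.23 (non-coding exons). The split by weaker replicate was not run with 1 replicate alone, since it left under 10 peaks in a direction. No paired analysis was possible because there is 1 group. The motif split and its alternatives, and the other windows for the promoter split, were chosen after seeing the data. Depth is unknown, and 83 and 161 peaks give wide intervals.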
